A study of Mus musculus with 8 samples.

Results

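The genes described here are 10 transcription factors known from the formation of innate lymphoid cells: Zbtb16, Nfil3, Tox, Tox2, Tcf7, Lef1, Gata3, Rora, Bcl11b and Ets1. They were chosen by name, and all 10 were found by symbol among the 53647 gene identifiers of the count tables. Their RNA was measured in 8 sequencing libraries of mouse bone marrow cells that lacked lineage antigens and carried CD127, the interleukin 7 receptor alpha chain. The study asks which genes differ between cells with and without Trerf1, a zinc finger transcription factor. The 4 KO libraries carry the genotype label Tref1 -/-, spelled in that way, and the 4 WT libraries carry Trerf1 +/+. The labels name no other allele, agent, strain, age or sex, do not say which exons the KO allele lacks, and do not say whether the libraries come from separate animals. P-values therefore measure the spread between libraries, which may be in part technical.

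Innate lymphoid cells are the tissue-resident counterparts of T helper cells and natural killer cells and carry no rearranged antigen receptor. In mouse bone marrow they arise from common lymphoid progenitors through CD127-positive precursors, in which Nfil3, Tox and Tcf7 act early, Zbtb16 marks a later precursor, and Gata3, Rora and Bcl11b are needed for the group 2 branch. Several of the same factors also act in T cell development, and CD127-positive marrow holds B cell progenitors as well, so their RNA in sorted marrow is not specific to 1 cell type.

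Total counts were 36184497, 32821991 and 33157291 in KO1 to KO3 and 66515540 in the library labelled KO4, against 34541825, 63498254, 31109744 and 73414626 in WT1 to WT4. Trerf1 was at 12.1 to 13.4 CPM in KO1, KO2 and KO3, with 22.1 CPM in the library labelled KO4, against 22.3 to 32.1 CPM in the WT libraries, where CPM is a gene's share of the library's counts after TMM scaling of library sizes. The library labelled KO4 therefore does not show the low Trerf1 of the other KO libraries. Xist, which coats the inactive X chromosome, stood at 447 to 768 CPM in KO1, KO3, the library labelled KO4, WT1 and WT4 and at most 0.613 CPM in KO2, WT2 and WT3. Il7r, which encodes CD127, was at 304 to 415 CPM in KO libraries and 269 to 374 CPM in WT libraries. Among genes of antigens used in lineage depletion, Ly6g was at 0 in 5 of 8 libraries and at most 0.0905 CPM in the others, and Cd3e was at 5.03 to 10.7 CPM in KO libraries and 4.78 to 8.10 CPM in WT libraries.

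None of the 10 factors passed the threshold between KO and WT in the quasi-likelihood test of edgeR, with p-values adjusted by Benjamini-Hochberg over 16352 genes. Each had an adjusted p of 0.999, and in each the 4 KO libraries overlapped the 4 WT libraries. Across all genes tested 0% passed an adjusted p of 0.05, and DESeq2 also called 0 genes. An unadjusted p under 0.05 was reached by 322 genes in edgeR and 565 in DESeq2. Against that background, 2 of the 10 factors had an unadjusted p under 0.05 and a higher estimate in KO, Nfil3 and Lef1, where 1.04% of all genes did. None had such a p with a lower estimate, where 0.93% of all genes did. The 4 KO libraries lay above the 4 WT libraries for none of the factors and for 0.74% of all genes, and below them for none of the factors and for 0.544% of all genes. The estimate was higher in KO for 4 factors (Nfil3, Tcf7, Lef1 and Ets1) and lower for 6, with a median log2 fold change of -0.13, beside 0.01 over all genes. In RNA from a mixed population, fewer cells of a type and less RNA per cell cannot be told apart.

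**Figure D1:**
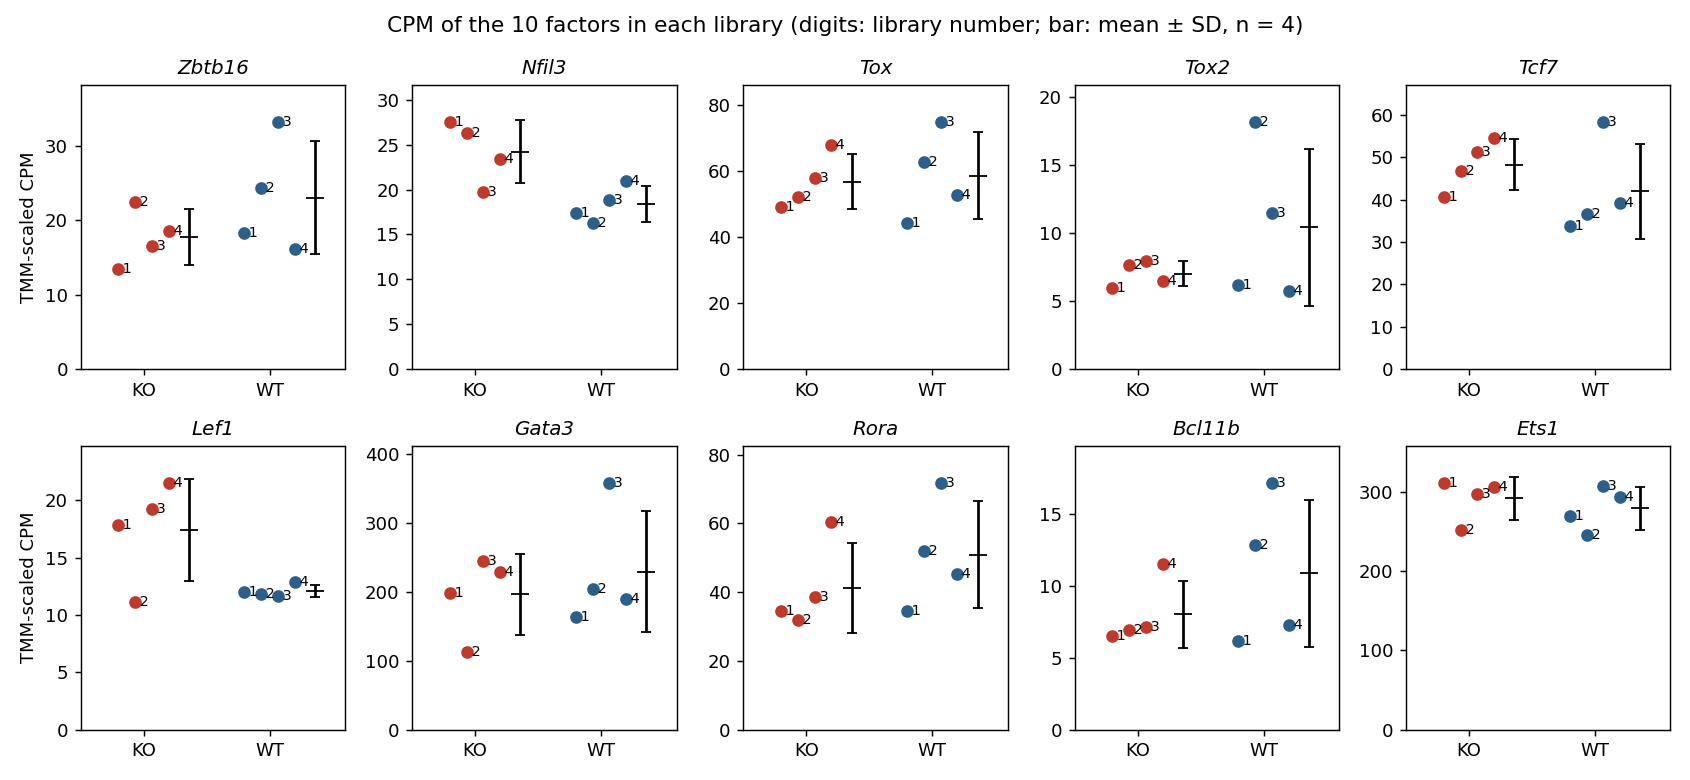
TMM-scaled CPM (vertical axis, from 0) of each of the 10 factors in the 4 KO and 4 WT libraries; digits give the library number and bars the mean ± SD (n = 4). The groups overlap in every panel, and WT3 is the highest library for 6 factors.

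Levels were compared between genes per transcript length, as TPM from RSEM. Gata3 was the highest of the 10 at a mean of 93.7 TPM over the 8 libraries, and Ets1 followed at 72.2 TPM. Tox (23.9), Tcf7 (22.6) and Rora (20.8) formed a middle group of mean TPM, then came Nfil3 at 14.2 and Lef1 at 8.45 TPM. Zbtb16 (6.31), Tox2 (4.41) and Bcl11b (1.56) had the lowest mean TPM. Between neighbours in that order, the range over libraries lay apart for Ets1 and Tox and overlapped for each of the other 8 pairs. Within a library, Nfil3 stood above Lef1 and Tox2 above Bcl11b in 8 of 8 libraries, whereas Tcf7 stood above Rora in 4 of 8. Gata3 and Ets1 together made up 54.3% to 65.1% of the summed TPM of the 10 factors. When levels were instead taken as CPM per kilobase of counted exons, Gata3 and Ets1 stayed first and Bcl11b last, while Tcf7 moved to rank 3, Nfil3 to rank 4, Tox to rank 5 and Rora to rank 7.

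**Figure D2:**
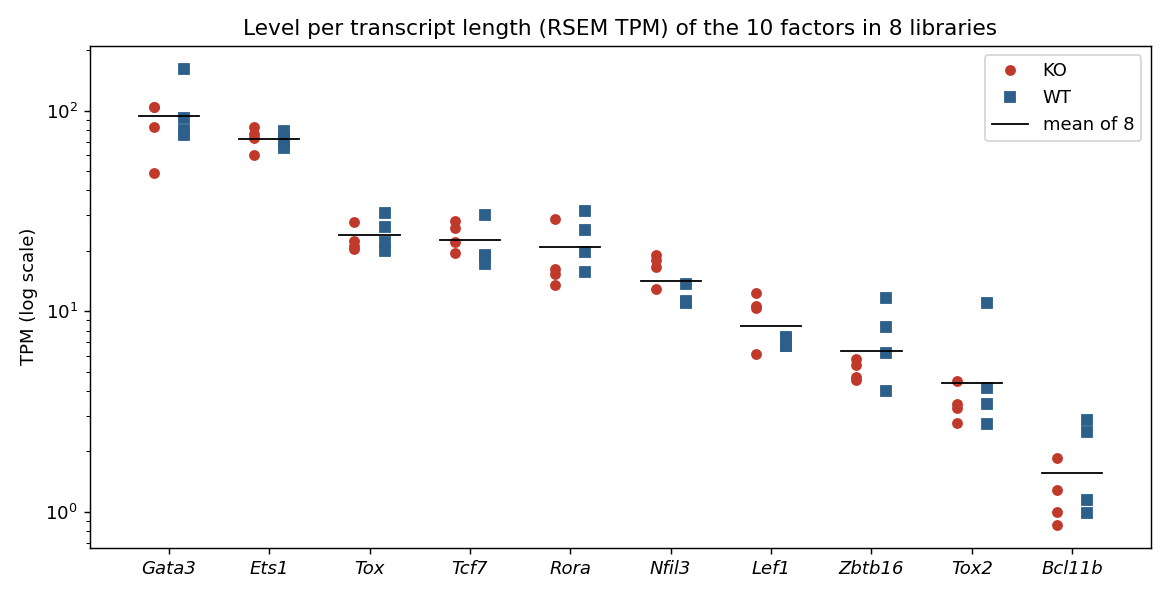
TPM on a log axis of the 10 factors, ordered by their mean over 8 libraries (line), with KO libraries as circles and WT libraries as squares. Gata3 and Ets1 lie above the other 8 factors by mean, and Gata3 spans 49.0 to 162 TPM.

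Promoter windows of the factors that the results turn on are shown to place letters of motifs beside the values. The motifs are those of some of these factors' families, and the E-box, which is not one of theirs. RefSeq windows on GRCm38.p6, 250 bases before to 50 after each annotated start, were at hand for 7 factors, as 15 windows among 32851. The windows shown are those of Nfil3 and Lef1, which had the smallest unadjusted p, and of Gata3 and Bcl11b, which differed most between the Xist classes of libraries. No window is shown for Zbtb16, Tox and Ets1. The Lef1 window is that of 1 of several starts, chosen because it holds the most motifs. The Lef1 windows that begin at 131110047 and 131110073 hold none of the motifs, and the window that begins at 131112541 holds only an E-box. Capitals mark a match on either strand to the motif of the GATA factors, spelled AGATAA, of TCF and LEF factors, spelled CTTTGA, of ETS factors, spelled GGAAGT, of ROR receptors, spelled AGGTCA, or of NFIL3, spelled TTACGTAA, or to the E-box spelled CAGCTG.
Nfil3 (chr13:52980990-52981289, minus strand): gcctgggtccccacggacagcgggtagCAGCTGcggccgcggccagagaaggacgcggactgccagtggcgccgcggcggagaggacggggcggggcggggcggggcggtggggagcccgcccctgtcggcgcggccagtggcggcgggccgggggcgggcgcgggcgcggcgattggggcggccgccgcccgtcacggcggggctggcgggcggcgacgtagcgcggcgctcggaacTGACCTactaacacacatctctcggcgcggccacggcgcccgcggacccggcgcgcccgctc
Lef1 (chr3:131156044-131156343, plus strand): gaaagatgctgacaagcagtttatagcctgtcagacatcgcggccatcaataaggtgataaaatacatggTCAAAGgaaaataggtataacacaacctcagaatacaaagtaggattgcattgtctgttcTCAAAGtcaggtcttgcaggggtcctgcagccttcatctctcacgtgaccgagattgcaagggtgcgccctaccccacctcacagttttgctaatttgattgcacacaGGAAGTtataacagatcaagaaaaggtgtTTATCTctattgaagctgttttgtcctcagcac
Gata3 (chr2:9878551-9878850, minus strand): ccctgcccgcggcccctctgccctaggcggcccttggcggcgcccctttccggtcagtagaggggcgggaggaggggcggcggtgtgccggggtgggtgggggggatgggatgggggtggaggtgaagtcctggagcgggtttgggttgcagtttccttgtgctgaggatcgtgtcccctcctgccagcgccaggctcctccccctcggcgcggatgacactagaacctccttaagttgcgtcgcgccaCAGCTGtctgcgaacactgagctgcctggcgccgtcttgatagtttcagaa
Bcl11b (chr12:108003365-108003664, minus strand): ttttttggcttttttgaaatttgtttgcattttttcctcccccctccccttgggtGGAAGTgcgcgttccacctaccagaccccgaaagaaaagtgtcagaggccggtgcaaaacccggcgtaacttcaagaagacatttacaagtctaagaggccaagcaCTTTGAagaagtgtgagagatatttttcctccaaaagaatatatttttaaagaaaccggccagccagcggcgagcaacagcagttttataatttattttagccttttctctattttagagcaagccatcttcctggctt
The Nfil3 window holds a ROR motif and an E-box, the Gata3 window an E-box, and the Bcl11b window a TCF and LEF motif and an ETS motif. The Lef1 window holds a GATA motif, an ETS motif and more than 1 TCF and LEF motif. The GATA motif was in 1 of the 15 windows of the factors and in 11.2% of all windows, and the TCF and LEF motif in 4 of 15 and 16.0%. The ETS motif was in 3 of 15 and 23.8%, the ROR motif in 2 of 15 and 16.3%, and the E-box in 4 of 15 and 16.3%. The NFIL3 motif was in 0 of 15 and 0.119%. Some of the 15 windows overlap each other. A match is a description of letters and not a measured binding site.

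Nfil3, a basic leucine zipper factor whose loss in mice blocks natural killer and innate lymphoid cell development, had the smallest unadjusted p of the 10. The gene (ENSMUSG00000056749.8) lies on chromosome 13 at 53121245 to 53135109, minus strand, in the GRCm39 coordinates of the count tables, which hold for all genes below. It had 27.6, 26.3 and 19.7 CPM in KO1, KO2 and KO3, with 23.4 CPM in the library labelled KO4, against 17.4, 16.3, 18.9 and 20.9 CPM in WT1 to WT4. All KO libraries but KO3 lay above every WT library, and KO3 lay between WT3 and WT4. The means were 24.2 ± 3.48 CPM in KO and 18.4 ± 1.997 CPM in WT (SD, n = 4 each), a log2 fold change of 0.40 ± 0.14 (SE) with an unadjusted p of 0.0166, rank 71 of all genes, and an adjusted p of 0.999 in the quasi-likelihood test of edgeR. The estimate kept its sign under all 22 alternatives, at 0.29 to 0.56, none of which called the gene, and the unadjusted p was 0.0601 without KO1 and 0.0511 without WT2.

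Tox and Tox2 are related high mobility group box factors; Tox is required for natural killer and innate lymphoid precursors in mice, and Tox2 has been tied to natural killer cell maturation in human cells. Tox (ENSMUSG00000041272.12, chromosome 4, 6686353 to 6991557, minus strand) had 49.0, 52.1 and 58.0 CPM in KO1, KO2 and KO3, with 68.0 CPM in the library labelled KO4, against 44.1, 62.6, 74.8 and 52.8 CPM in WT1 to WT4. The KO values all lay inside the WT range. The log2 fold change was -0.04 ± 0.16 (SE), and the sign turned without WT3 (0.09) and without KO1 (0.01). Tox2 (ENSMUSG00000074607.12, chromosome 2, 163045045 to 163166090, plus strand) had 5.97, 7.62 and 7.93 CPM in KO1, KO2 and KO3, with 6.47 CPM in the library labelled KO4, against 6.20, 18.2, 11.5 and 5.77 CPM in WT1 to WT4. WT2 and WT3 lay above all KO libraries, WT1 lay among them, and WT4 was the lowest of the 8 libraries. Its log2 fold change was -0.58 ± 0.34 (SE), with an unadjusted p of 0.117, and was -0.17 without WT2, the highest library. The coefficient of variation of Tox2 was 13.3% in KO and 55.6% in WT.

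Tcf7 and Lef1 encode TCF-1 and LEF-1, high mobility group box partners of beta-catenin in the Wnt pathway; TCF-1 marks the earliest innate lymphoid progenitors and T cell precursors, and LEF-1 acts in progenitor B cells and with TCF-1 in T cell development. Tcf7 (ENSMUSG00000000782.17, chromosome 11, 52143198 to 52174158, minus strand) had 40.5, 46.7 and 51.3 CPM in KO1, KO2 and KO3, with 54.5 CPM in the library labelled KO4, against 33.7, 36.7, 58.3 and 39.1 CPM in WT1 to WT4. WT3 was the highest library, and the other 3 WT libraries lay below every KO library. The log2 fold change was 0.20 ± 0.17 (SE), and 0.0061 among the 5 shallower libraries. With each library left out in turn it was lowest without WT1, at 0.10, followed by 0.13 without WT2 and 0.14 without the library labelled KO4, and highest without WT3, at 0.40, where the unadjusted p was 0.0116 and the adjusted p 0.9999 in edgeR's quasi-likelihood test.

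Lef1 (ENSMUSG00000027985.15, chromosome 3, 130904120 to 131018005, plus strand) had 17.8, 11.1 and 19.2 CPM in KO1, KO2 and KO3, with 21.5 CPM in the library labelled KO4, against 11.98, 11.8, 11.7 and 12.9 CPM in WT1 to WT4. KO2 was the lowest of the 8 libraries, and the other KO libraries lay above all WT libraries. The means were 17.4 ± 4.47 CPM in KO and 12.1 ± 0.538 CPM in WT (SD, n = 4 each), a log2 fold change of 0.53 ± 0.19 (SE) with an unadjusted p of 0.0183, rank 81, and an adjusted p of 0.999 in the quasi-likelihood test of edgeR. The unadjusted p was 0.0506 without KO3 and 0.0592 without the library labelled KO4. Without KO2 the log2 fold change was 0.69 ± 0.14 (SE). The unadjusted p was then 0.000551 and the adjusted p 0.9999 in edgeR's quasi-likelihood test. Lef1 is overlapped by Gm42449, an unsupported transcript on the same strand with 14 to 258 counts per library; under the defaults of the counting program, reads in both are assigned to neither. Antisense genes with 0 to 54 counts per library also overlap Tox, Tcf7, Lef1, Gata3, Rora and Ets1, and counting without strand cannot separate their reads. Among the 10 factors, the WT coefficient of variation of Lef1, at 4.45%, was the lowest in either group.

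Zbtb16 encodes PLZF, a zinc finger factor that marks committed innate lymphoid precursors and is required for natural killer T cells in mice. The gene (ENSMUSG00000066687.6, chromosome 9, 48565597 to 48747522, minus strand) had 13.5, 22.4 and 16.6 CPM in KO1, KO2 and KO3, with 18.6 CPM in the library labelled KO4, against 18.4, 24.4, 33.3 and 16.2 CPM in WT1 to WT4. WT2 and WT3 lay above all KO libraries, and WT1 and WT4 lay among them. The means were 17.8 ± 3.75 CPM in KO and 23.1 ± 7.65 CPM in WT (SD, n = 4 each), a log2 fold change of -0.38 ± 0.23 (SE) with an unadjusted p of 0.137. The estimate kept its sign under the 22 alternatives, at -0.56 to -0.10, and stood at -0.15 without WT3.

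Gata3, a zinc finger factor needed by T cells and by group 2 innate lymphoid cells, had the largest span in CPM. The gene (ENSMUSG00000015619.11, chromosome 2, 9861889 to 9894845, minus strand) had 198, 113 and 244 CPM in KO1, KO2 and KO3, with 229 CPM in the library labelled KO4, against 164, 204, 358 and 189 CPM in WT1 to WT4. KO2 was the lowest and WT3 the highest library, with the other 6 between 164 and 244 CPM. The means were 196 ± 58.6 CPM in KO and 229 ± 87.7 CPM in WT (SD, n = 4 each), with a log2 fold change of -0.22 ± 0.27 (SE). The sign turned without WT3, to 0.07, and the value was -0.03 without KO2 and -0.36 without WT1.

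Rora, a nuclear receptor required for group 2 innate lymphoid cells in mice, is the longest of the 10 genes (ENSMUSG00000032238.18, chromosome 9, 68561068 to 69295528, plus strand). It had 34.4, 31.8 and 38.5 CPM in KO1, KO2 and KO3, with 60.3 CPM in the library labelled KO4, against 34.6, 51.9, 71.8 and 45.4 CPM in WT1 to WT4. KO1 and KO2 lay below all WT libraries, while the library labelled KO4 exceeded 3 of the WT libraries. The log2 fold change was -0.30 ± 0.24 (SE), and -0.60 ± 0.23 with the library labelled KO4 and WT4 both left out, with an unadjusted p of 0.0294 and an adjusted p of 0.518 in edgeR's quasi-likelihood test. With single libraries left out, it was -0.10 without WT3, -0.20 without KO2, -0.46 without WT1 and -0.55 without the library labelled KO4.

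Bcl11b, a zinc finger factor of T cell commitment that also maintains group 2 innate lymphoid identity, had the lowest TPM. The gene (ENSMUSG00000048251.16, chromosome 12, 107876662 to 107969861, minus strand) had 6.53, 6.97 and 7.13 CPM in KO1, KO2 and KO3, with 11.5 CPM in the library labelled KO4, against 6.20, 12.8, 17.2 and 7.32 CPM in WT1 to WT4. WT1 was the lowest library, and KO1 to KO3 lay between WT1 and the other WT libraries. The log2 fold change was -0.43 ± 0.32 (SE). With the library labelled KO4 and WT4 both left out it was -0.81 ± 0.32, with an unadjusted p of 0.0332 and an adjusted p of 0.524 in edgeR's quasi-likelihood test. That setting called 12 of 16300 genes, or 0.0736%, and none of the 10 factors. With single libraries left out, the value was -0.66 without the library labelled KO4 and -0.13 without WT3.

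Ets1 is an ETS family factor of lymphoid cells that is required for natural killer cell development in mice. It was the steadiest of the 10 by its ratio of highest to lowest TPM, at 1.38. The gene (ENSMUSG00000032035.17, chromosome 9, 32547517 to 32669116, plus strand) had 312, 252 and 297 CPM in KO1, KO2 and KO3, with 307 CPM in the library labelled KO4, against 270, 246, 308 and 294 CPM in WT1 to WT4. KO1 was the highest and WT2 the lowest library, and KO2 lay close to WT2. The log2 fold change was 0.06 ± 0.10 (SE), and without WT2 it was -0.0016.

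The values of the factors varied between the libraries of each group. In log2 CPM relative to each gene's own mean, the median over the 10 factors was -0.17, -0.15 and 0.00 in KO1 to KO3 and 0.22 in the library labelled KO4, against -0.33, 0.07, 0.45 and -0.13 in WT1 to WT4. In WT3, 8 of 10 factors were above their mean and Zbtb16, Tox, Tcf7, Gata3, Rora and Bcl11b had their highest value, while in WT1 none was above its mean. The median over all tested genes stayed between -0.0046 and 0.024 in every library. The coefficient of variation had a median over the factors of 17.9% in KO and 28.7% in WT, where all genes had 17.5% and 18.1%. The factors with the widest spread in WT were Tox2, Bcl11b and Gata3.

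**Figure D3:**
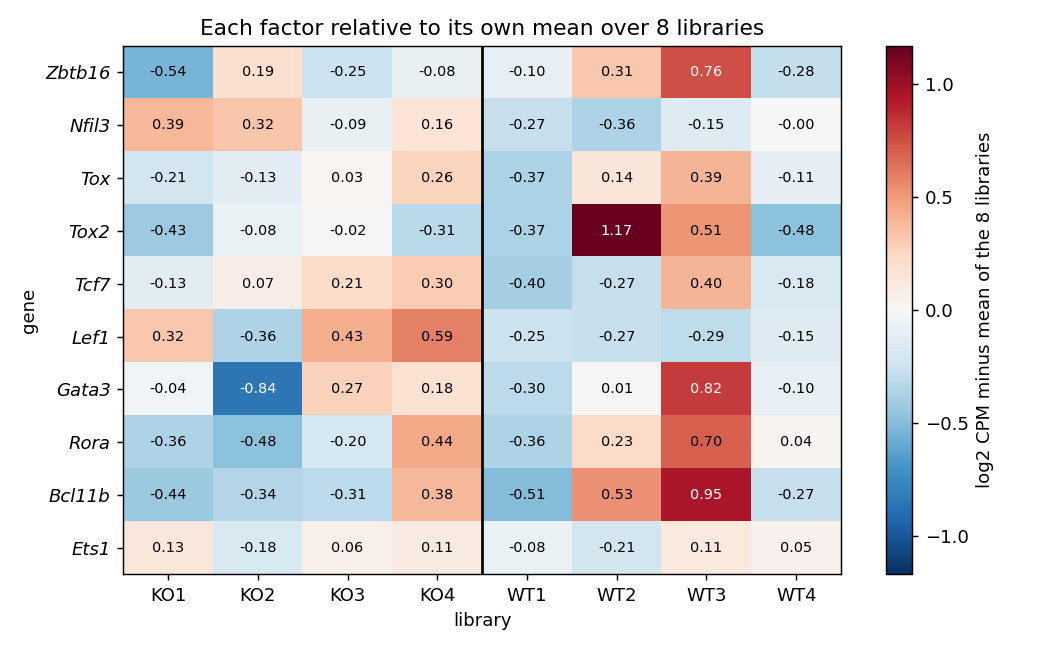
Log2 CPM of each factor minus its mean over the 8 libraries (colour and printed value), with KO libraries on the left and WT libraries on the right of the line. WT3 is above the mean for 8 factors and the library labelled KO4 for 8, WT1 for none.

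Markers of mature innate lymphoid cells varied over the same libraries. The 20 genes of group 2 innate lymphoid cells summed to 259, 165 and 286 CPM in KO1, KO2 and KO3, with 359 CPM in the library labelled KO4, against 275, 363, 440 and 280 CPM in WT1 to WT4. KO2 had the lowest sum and WT3 the highest, as for Gata3. Of the 19 tested genes 16 had a lower and 3 a higher estimate in KO, with a median log2 fold change of -0.46 beside 0.01 over all genes, and none passed the adjusted p. The 3 with the smallest unadjusted p, Il9r, Ccr8 and Calca, had log2 fold changes of -1.07 ± 0.41, -1.11 ± 0.47 and -1.40 ± 0.57 (SE). Il1rl1, which encodes the interleukin 33 receptor and was named after its values were seen, was at 23.4 to 57.6 CPM in KO libraries and 36.4 to 105 CPM in WT libraries. None of these marker genes was at 0 in any library, and Ptgdr2 was at most 0.432 CPM. The part of group 2 innate lymphoid cells in the values of Gata3, Rora and Bcl11b was not tested.

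T cells also express Tcf7, Lef1, Gata3 and Bcl11b. The 20 T cell genes summed to 863 to 916 CPM in KO libraries and 700 to 844 CPM in WT libraries, without overlap of the groups in this sum. Sums were taken for every gene list, and those of all the other lists overlapped between the groups. The T cell sum leans on its highest genes, which overlapped between the groups. Cd4 was at 61.3 to 281 CPM in KO libraries and 37.9 to 193 CPM in WT libraries. Lck was at 223 to 360 CPM in KO libraries and 185 to 299 CPM in WT libraries. Gene by gene, the groups did not overlap for 1 of the 20, Cd5, and the KO libraries lay above for 0.74% of all genes. Of the 20, 15 had a higher estimate in KO and 5 a lower one, with a median log2 fold change of 0.25, and none passed the adjusted p. Cd5, an inhibitory surface receptor of T cells, was at 12.9 to 16.7 CPM in KO libraries and 11.2 to 12.3 CPM in WT libraries, with a log2 fold change of 0.34 ± 0.13 (SE). Cd3g, a chain of the T cell receptor complex, had 0.82 ± 0.33. No gene of the list was at 0 in any library, and its part in the values of Tcf7 and Lef1 was not tested.

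**Figure D4:**
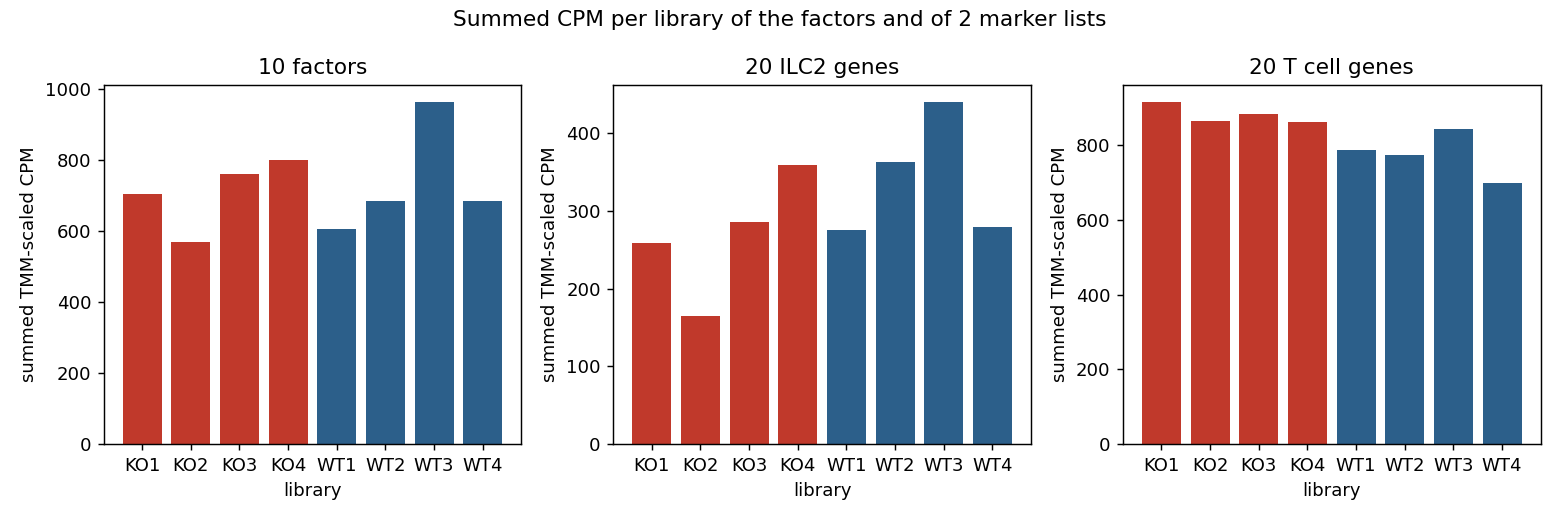
Summed TMM-scaled CPM per library (bars from 0) of the 10 factors, 20 group 2 innate lymphoid genes and 20 T cell genes, KO libraries left and WT libraries right. WT3 is highest in the first 2 panels, and all 4 KO bars exceed the WT bars in the T cell panel. That sum includes Cd4, which ran from 37.9 CPM in WT3 to 281 CPM in KO1 and overlapped between the groups. The sums of the lists not shown overlapped between the groups.

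Of the remaining marker lists, none had a gene past the adjusted p. The 15 natural killer genes had 9 higher and 6 lower estimates in KO, with a median log2 fold change of 0.10, and the 10 tested group 3 innate lymphoid genes had 4 and 6, with a median of -0.04. Il17a and Il22 of that list were at 0 in 4 and 3 libraries. The 15 B lineage genes had 12 higher and 3 lower estimates, with a median of 0.21; Cd79a, a chain of the B cell receptor complex, was at 119 ± 17.8 CPM in KO and 91.6 ± 6.41 CPM in WT (SD, n = 4 each). The 12 erythroid genes had 11 lower estimates and 1 higher, with a median of -0.96, and their sum was 690 to 989 CPM in KO libraries and 617 to 1442 CPM in WT libraries. All 9 tested monocyte and macrophage genes had higher estimates, with a median of 0.40, and their sum was 306 to 422 CPM in KO libraries and 239 to 415 CPM in WT libraries; C1qa, C1qb and C1qc of that list were each at 0 in at least 1 library. The 12 plasmacytoid dendritic cell genes had 5 higher and 7 lower estimates, and the 12 genes of common lymphoid progenitors had 8 and 4.

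Other regulators of the same pathway did not pass the test. Of 22 such genes, 8 had a higher and 14 a lower estimate in KO, with a median log2 fold change of -0.06. Id2, the inhibitor of E proteins that defines innate lymphoid commitment, was at 163, 136 and 197 CPM in KO1, KO2 and KO3, with 175 CPM in the library labelled KO4, against 123, 192, 285 and 142 CPM in WT1 to WT4. KO2 was the lowest of the KO libraries and WT3 the highest of all, as for Gata3. Id3, a related inhibitor, was at 50.9 ± 29.0 CPM in KO and 35.3 ± 2.98 CPM in WT, and Notch2, a Notch receptor, at 31.0 ± 3.22 CPM in KO and 36.8 ± 3.48 CPM in WT (SD, n = 4 each). The 14 surface molecules and cytokine receptors of innate lymphoid precursors had 9 higher and 5 lower estimates, with a median of 0.11.

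Family relatives were often far above or below the factors in TPM. Bcl11a, which acts in B cell and dendritic cell development and is the relative of Bcl11b, was at 166 ± 4.90 TPM in KO and 181 ± 21.9 TPM in WT (SD, n = 4 each), against 1.25 ± 0.438 TPM in KO and 1.88 ± 0.953 TPM in WT for Bcl11b. Tcf7l2 was at a mean of 95.7 TPM over the 8 libraries, above Tcf7, and Tcf7l1 at 0.501 TPM. Tox4 was at 71.4 TPM, above Tox, and Tox3 at 0.506 TPM. Gata2, a factor of early blood progenitors and mast cells, was at 0.908 TPM, and Gata1 at 5.45 TPM. Of the 16 relatives tested, 7 had a higher and 9 a lower estimate in KO. Tcf7l1 had a log2 fold change of 0.91 ± 0.39 (SE) with an unadjusted p of 0.0418 and an adjusted p of 0.999 in edgeR's quasi-likelihood test, from levels of 0.648 to 1.54 CPM in KO libraries and 0.464 to 1.01 CPM in WT libraries.

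The direction of the estimates differed with the Xist class of the libraries. Among the libraries without Xist (KO2, WT2 and WT3), 1 of 10 factors had a higher estimate in KO, Nfil3, and the KO side there is the single library KO2, assumed to vary like the WT libraries. Among those with it (KO1, KO3, the library labelled KO4, WT1 and WT4), 9 of 10 did, the exception being Zbtb16. The largest contrast was that of Gata3, with a log2 fold change of -1.33 without Xist and 0.34 with it. The interaction of genotype and Xist class (without minus with), a test added after seeing the data, gave -1.65 ± 0.37 (SE) for Gata3, with an unadjusted p of 0.00143 and an adjusted p of 0.733 in edgeR's quasi-likelihood test. It called 0% of the 16352 genes; 666 genes had an unadjusted p under 0.05, among them 6 of the 10 factors: Gata3, Bcl11b, Tox2, Rora, Lef1 and Tox. The Xist class and the single library KO2 cannot be told apart on the KO side.

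**Figure D5:**
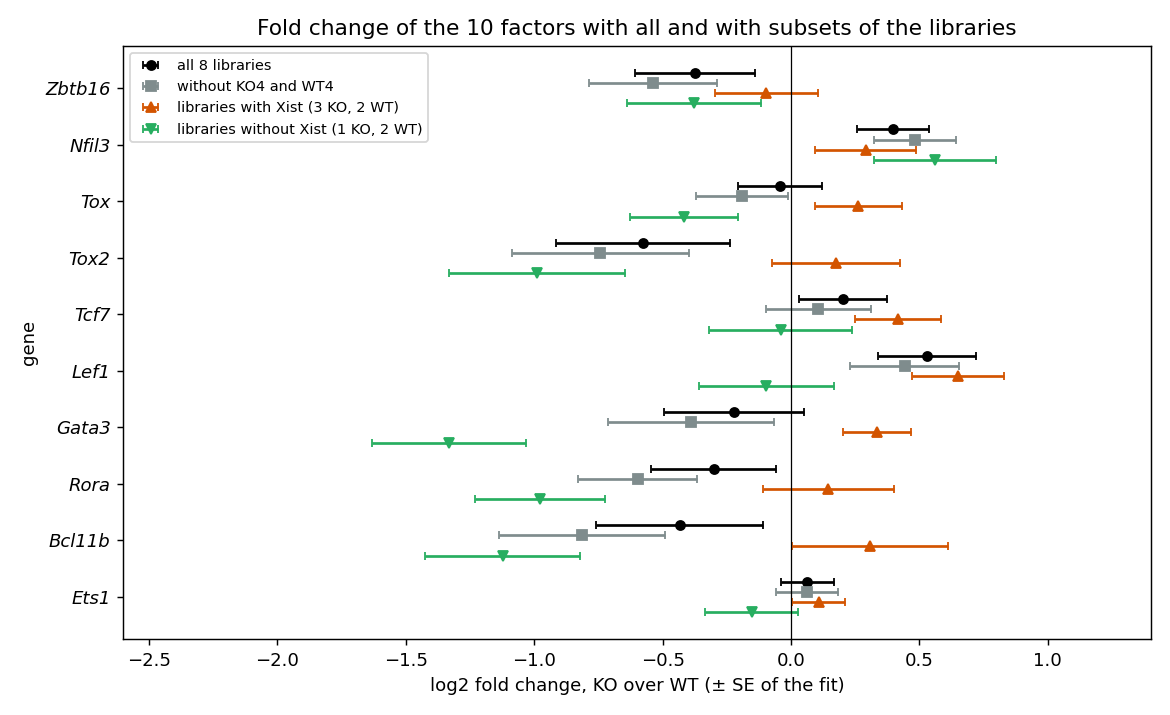
Log2 fold change of KO over WT for each factor (horizontal axis, ± SE of the fit) with all 8 libraries, without WT4 and the library labelled KO4, with the 5 libraries that have Xist and with the 3 that do not. Nfil3 stays above 0 and Zbtb16 below 0 in all 4 settings, and Gata3 runs from -1.33 without Xist to 0.34 with it.

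Across the 8 libraries some factors varied together. Pearson's r of log2 CPM, given as a description of libraries that share group, depth and Xist differences, was 0.93 for Rora and Bcl11b, 0.92 for Tox and Bcl11b and 0.90 for Tox and Rora. The most negative values were -0.59 for Nfil3 and Tox2 and -0.59 for Zbtb16 and Lef1. Similar genes were sought among 9621 protein-coding genes with a mean of at least 5 CPM. Symbols starting with Gm and a digit or ending in Rik were left out. Each gene named has 1 of the highest of many values over only 8 libraries, so a high r can come from the search alone. The gene most like Rora was Kmt2d, a histone methyltransferase, with an r of 0.99. The gene most like both Tox (0.97) and Bcl11b (0.96) was Nfatc3, a calcium-responsive transcription factor. For Gata3 the list was led by Resf1 (0.96) and Cbfb (0.95), the partner subunit of the Runx factors. The closest genes by r were Tert for Zbtb16, Senp6 for Tcf7, Napg for Ets1, Zfp760 for Tox2, Dcxr for Nfil3 and Traf1 for Lef1, at 0.91 to 0.97.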

How the data were processed

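Per the labels, 200 ng of total RNA per library went into a low-input cDNA kit. The authors deposited whole-number read counts per gene from featureCounts 1.6.4, per the file headers, run on alignments with duplicates marked; no strand, pair or duplicate option is in the header's command, so reads of both strands count together. The authors also deposited RSEM 1.3.1 expected counts and TPM per gene; the submitters' processing notes also list STAR 2.6.0a and Picard 2.19. The ratio of summed counts to summed expected counts was 3.67 to 4.00. The notes name mm10, while the annotation path in the headers names GRCm39. Of 53647 identifiers, 52093 (97.1%) matched a symbol.

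A single edgeR 4.0.16 model (R 4.3.3) was fitted to the counts of the 8 libraries, using filterByExpr, TMM and the quasi-likelihood F test without covariate, with a threshold of 0.05. CPM is TMM-scaled, and log2 CPM for r used a prior count of 3. TPM was averaged as deposited. Member counts were 214 to 20606 per library. Alternatives were no filter, a minimum mean CPM of 1, RLE factors, unscaled library sizes, rounded RSEM expected counts, DESeq2 1.42.0, replicate block, Xist or depth class as covariate, subsets by Xist or depth, KO4 and WT4 left out, and each library left out. Steps were tested on simulated data.

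The members and lists were chosen with earlier results of these data known. The naming rule takes all members, Trerf1, Xist, up to 3 genes per list by smallest unadjusted p, Id2, Il7r, Gata2 and Bcl11a, and the 3 most similar genes per member by r. A further gene under this rule is not reported here. Il1rl1, Cd3e, Il17a, Il22, Ly6g, C1qa, C1qb, C1qc, Ptgdr2, Tcf7l2, Tox3, Tox4 and the overlapping gene of Lef1 were named outside it. RefSeq windows were used for promoters of GRCm38.p6, and gene coordinates are those of the count tables.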

Additional observations from a re-analysis of the deposited data

Results flagged for a closer look

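Of 20 sets of 4 libraries (10 factors in KO and in WT), 1 held a library far from the others by Dixon's ratio, which chance gives in about 1 of 20 sets. Bcl11b was at 11.5 CPM in the library labelled KO4, against 6.53 to 7.13 CPM in KO1 to KO3, a ratio of 0.878, above the critical value for 4 libraries.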

How the results depend on the processing

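No alternative called any of the 10 factors; the lowest adjusted p over the alternatives was 0.194, for Gata3 without Xist. Nfil3 and Zbtb16 kept their sign throughout. The sign turned, in log2, with Xist as covariate for Tox (0.036); among libraries with Xist for Tox (0.26), Tox2 (0.18), Gata3 (0.34), Rora (0.15) and Bcl11b (0.31); among those without for Tcf7 (-0.040), Lef1 (-0.10) and Ets1 (-0.15); among the shallower for Ets1 (-0.0088); and among the deeper for Tox (0.19), Gata3 (0.18), Rora (0.27) and Bcl11b (0.15). The deeper KO arm is only the library labelled KO4, whose Trerf1 was not low, and the KO arm without Xist is only KO2; each is assumed to vary like the WT libraries. With each library left out in turn, Tox ran from -0.17 to 0.090, Gata3 from -0.36 to 0.072, Ets1 from -0.0016 to 0.13, Tox2 from -0.78 to -0.17 (without WT2, when 4 factors were more negative) and Tcf7 from 0.10 to 0.40. The cause was not tested.

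Factors with higher estimates in KO numbered 4 of 10, but 1 without Xist, 9 with it and 8 among the deeper libraries. Genes with an unadjusted p under 0.05 numbered 322, but 836 with no filter, 634 with the replicate block, 1427 without WT4 and the library labelled KO4, 1869 without Xist, 918 among the shallower and 559 among the deeper libraries, 565 in DESeq2, and 168 to 1016 with each library left out in turn, lowest without WT2 and highest without WT4, with 978 without the library labelled KO4 and 535 without KO1. Without WT4 and the library labelled KO4, 12 genes were called lower; without Xist 2 were called higher and 2 lower, and among the deeper libraries 1 and 1. Ranks by CPM per kilobase were 6 for Zbtb16, 4 for Nfil3, 5 for Tox, 8 for Tox2, 3 for Tcf7, 9 for Lef1 and 7 for Rora. For pairing, deviations from the group mean over the 2000 most variable genes were correlated between KO and WT libraries. Same-numbered libraries had an r of 0.440, 0.386, -0.0323 and 0.165, 3 of 4 above 0.1. Other-numbered pairs ran from -0.306 to 0.262. Neither KO3 nor the library labelled KO4 correlated best with its own number, and no label says that a number marks a shared source, so pairing was not assumed. The replicate block called no gene. Counting error at the lowest count, if every count is taken as independent, was at most 6.84% (Tox2 and Bcl11b). Summed counts were 3.67 to 4.0 times the summed RSEM expected counts, so the true counting error may be larger.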
